A study of Mus musculus with 4 samples.

Results

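Endothelial cells line the blood vessels of the fracture callus, the repair tissue that bridges a broken bone. In 2 callus libraries, 132 cell barcodes of 14451 that passed the filters were taken as endothelial by a rule on their transcripts, 49 of 7133 in control and 83 of 7318 in GC. Of these, 20 also carried markers of other cells, and some held few endothelial transcripts, as described below. These barcodes were chosen by their own UMI counts. A barcode was taken as endothelial when it held at least 1 unique molecular identifier (UMI, 1 captured RNA molecule) of Cdh5, at least 3 UMIs of Cdh5, Pecam1 and Emcn together, no Ptprc, which marks blood cells, and under 1% of its UMIs from Col2a1, the main collagen gene of cartilage. The series held 23216 filtered barcodes in 4 single-cell libraries, 1 of callus and 1 of trabecular bone from placebo-treated mice (control) and 1 of each tissue from mice given prednisolone at 6.25 mg/kg/d (GC), a synthetic glucocorticoid. All mice were 20-week-old male C57BL/6J animals and were sampled 2 weeks into treatment. By the labels prednisolone or placebo came from a slow-release pellet in every group, whereas the study's methods give daily injection for mice with a fracture, and the number of mice behind a library was not given in the sources used here. With 1 library per condition the animals and the treatment cannot be told apart, no test between conditions was possible, and all intervals are 95% intervals for counting error only. The callus libraries held 95852254 UMIs in control and 64388215 in GC, and the trabecular libraries 41239842 and 45876714. In trabecular bone the same rule found 3 of 3977 control barcodes and 5 of 4788 GC barcodes, too few to compare.

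The endothelium seals vessels through junctions built on VE-cadherin (Cdh5) and PECAM-1 (Pecam1), rests on a basement membrane of type IV collagen and laminin, and takes growth signals through receptors of the VEGF, angiopoietin, Notch and BMP families. In bone, capillaries rich in endomucin (Emcn) grow into cartilage that is being replaced and lie beside bone-forming cells. Capillary endothelium also moves fatty acids from blood to tissue, which uses the transporter Cd36, the fatty acid-binding protein Fabp4 and lipoprotein lipase (Lpl). Glucocorticoids act through the receptor encoded by Nr3c1.

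Many endothelial genes carry binding sites for ETS family transcription factors, such as Erg and Fli1, near their start, and the core of such a site is GGAA. The letters AGGAAG, or CTTCCT on the other strand, were therefore searched in the 250 bases before the starts of the 35 genes that make up the endothelial lists, and 19 of these genes had a promoter in the RefSeq table (GRCm38.p6). At least 1 promoter of 14 of the 19 genes (73.7%) held the letters, against 8734 of 27025 genes (32.3%) in the whole table. By promoter, the counts were 15 of 25 (60.0%) against 29.5% of 32851. A match is a description of the letters and not a site in use. The promoters of Egfl7 (a secreted vascular factor), Emcn and Flt1 (a VEGF receptor) are shown because they held more than 1 match. They were picked only among the 11 genes in the table that most set the endothelial barcodes apart from other callus barcodes. They are written 5′ to 3′ on the strand of the gene, with the matches in capitals, at chr2:26580833-26581082 (plus strand), chr3:137340828-137341077 (plus strand) and chr5:147726012-147726261 (minus strand).
Egfl7: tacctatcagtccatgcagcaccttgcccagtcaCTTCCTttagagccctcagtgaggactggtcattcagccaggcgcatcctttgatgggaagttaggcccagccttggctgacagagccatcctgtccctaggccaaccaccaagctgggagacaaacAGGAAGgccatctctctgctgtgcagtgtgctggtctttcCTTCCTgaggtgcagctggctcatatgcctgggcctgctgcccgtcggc
Emcn: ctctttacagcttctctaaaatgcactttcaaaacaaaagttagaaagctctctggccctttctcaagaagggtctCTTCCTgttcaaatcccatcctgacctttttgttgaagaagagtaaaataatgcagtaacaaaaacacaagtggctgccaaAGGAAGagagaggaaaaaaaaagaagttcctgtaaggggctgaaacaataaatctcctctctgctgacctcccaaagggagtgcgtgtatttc
Flt1: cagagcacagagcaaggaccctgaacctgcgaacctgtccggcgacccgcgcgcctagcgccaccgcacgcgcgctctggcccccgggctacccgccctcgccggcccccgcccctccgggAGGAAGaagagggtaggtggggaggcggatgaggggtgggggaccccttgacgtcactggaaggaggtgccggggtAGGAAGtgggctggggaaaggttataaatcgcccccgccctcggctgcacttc
Egfl7 has 2 other promoters in the table, with 1 match and none, and the one with most is shown. That Egfl7 window held 3 matches, and the Emcn and Flt1 windows held 2 each. Kdr, which encodes the main VEGF receptor, had no match in its window. Of the genes that most set the endothelial barcodes apart from other callus barcodes, 11 were in the table and 5 (45.5%) held the letters.

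The endothelial barcodes carried the markers of endothelium. Cdh5, the first gene of the rule, stood at 1393 CPM (UMIs of the gene per 1000000 UMIs) in control (1287–1506) and 1547 in GC (1447–1651). Every fold in this paragraph was taken with 5 CPM added to both levels, which lowers it where the other barcodes hold little of a gene. By this measure Cdh5 stood 185-fold and 153-fold above the other callus barcodes of the same library. Of 49 control barcodes, 47 had Pecam1, 44 Emcn, 43 Kdr and 43 Egfl7, and of 83 GC barcodes the numbers were 78, 69, 71 and 73. Of 30 further endothelial genes, 28 reached 50 CPM in both libraries, and all 28 were more than 2-fold above the other callus barcodes in both. The median of these 28 folds was 30.3, and 25 of them passed 10-fold. Over all 3153 genes at that level the median fold was 1.33 and 22.8% passed 2-fold. These values describe the contrast that the rule itself used. The smallest fold belonged to Erg at 2.62, and the largest to Esam, an endothelial adhesion molecule, at 71.6. The 2 genes below 50 CPM were Vwf, with 6 UMIs in control and 5 in GC, and Tal1, with 9 and 19. Fabp4, which the rule did not use, stood 164-fold above the other barcodes in control and 172-fold in GC.

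Endothelial barcodes made up 0.687% of filtered callus barcodes in control (0.509–0.907%) and 1.13% in GC (0.904–1.40%, both Clopper-Pearson), a ratio of 1.65 (1.15–2.40). Of barcodes free of Ptprc (4544 and 4776) the shares were 1.08% and 1.74%, a ratio of 1.61 (1.12–2.34). The Col2a1 limit bears on this ratio, since 4 barcodes in control and 41 in GC met every other condition. Their median Col2a1 share was 2.76% and 3.30% of UMIs, against 0.171% and 0.0312% in the barcodes kept. The highest share inside the limit was 0.496% in control and 0.321% in GC, and the lowest outside it 1.28% and 1.61%. With no limit the shares were 0.743% and 1.69%, a ratio of 2.28, and with Col2a1 under 0.1% of UMIs they were 0.0981% (7 barcodes) and 1.05%, a ratio of 10.7. At the other edges, 2 barcodes in each library had exactly 3 UMIs of the 3 genes, 2 in control and 3 in GC missed by 1 UMI, and 7 and 18 were left out for Ptprc. The median endothelial barcode held 5332 UMIs and 2120 genes in control and 4985 UMIs and 2182 genes in GC. The smallest held 605 and 560 UMIs, and the largest 67338 and 56326. Mitochondrial genes took a median of 3.38% and 2.95% of UMIs. The callus libraries shared 12 filtered barcode sequences and no endothelial one.

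Some of these barcodes also carried transcripts of other cells. In 20 of 132 barcodes, 9 in control and 11 in GC, at least 3 marker genes of a class other than endothelium or cartilage had at least 2 UMIs each. These mixed barcodes held 37.5% of all endothelial UMIs in control and 31.8% in GC. Their median depth was 14685 UMIs in control and 14579 in GC, against 4197 and 4834 in the rest. A doublet score marked 1 endothelial barcode in each library. Stromal markers summed to 7727 CPM in control and 7805 in GC, with Col1a1 the most abundant in control and Col1a2 in GC, and to 757 and 547 CPM without the mixed barcodes. Osteoblast markers summed to 2488 and 7313 CPM with them and to 835 and 466 without them, led by Ibsp in control and Spp1 in GC. Macrophage markers summed to 664 and 110 CPM with them and to 66.6 and 116 without them, led by Lyz2 and Mrc1, and the GC barcodes held no UMI of C1qa, C1qb, C1qc, Adgre1 or Fcgr1. Mural markers, of the smooth muscle and pericytes that wrap vessels, summed to 692 and 620 CPM with the mixed barcodes and to 196 and 177 without them, led by Rgs5. Neutrophil markers summed to 469 and 180 CPM with them and to 70.1 and 203 without them, led by S100a8. B cell markers stood at 87.6 and 24.2 CPM with Ms4a1 at 0 in both, and T and NK cell markers gave 2 UMIs in control and none in GC. Erythroid markers, led by Hbb-bs, summed to 74.5 and 197 CPM with the mixed barcodes and to 94.7 and 208 without them, against 943 and 2837 CPM in B cells. Osteoclast markers, led by Mmp9, summed to 252 and 114 CPM with them and to 45.6 and 116 without them, with Dcstamp and Atp6v0d2 at 0 in both libraries. Megakaryocyte markers stood at 28.5 and 8.63 CPM. In B cells of control and GC the stromal list summed to 4809 and 7051 CPM, the osteoblast list to 5238 and 8368 and the neutrophil list to 1091 and 2950. The macrophage list summed there to 185 and 210 CPM, the mural list to 227 and 155 and the osteoclast list to 351 and 40.8. The part of free RNA in these sums and the part of these other transcripts in the results were not tested. Results are given with all 132 barcodes and again for the 112 others (40 and 72, with 285154 and 394902 UMIs), a choice made after the data had been seen.

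Between the conditions, 3670 genes held at least 50 UMIs over both sets of endothelial barcodes. Ratios are of GC over control, on the log2 scale with 5 CPM added, and more than 2-fold apart means beyond 1 on that scale. By this measure 85 genes (2.32%) were more than 2-fold higher in GC and 74 (2.02%) more than 2-fold lower, around a median of −0.01. In the 112 barcodes that were not mixed 2588 genes were measured, of which 42 (1.62%) were higher and 36 (1.39%) lower, around a median of −0.02. Genes that fell under the UMI minimum there are given with their UMIs and are not counted. In both sets of barcodes 22 genes were more than 2-fold higher and 18 more than 2-fold lower. Of the 15 highest ratios 11 stayed more than 2-fold apart without the mixed barcodes, and of the 15 lowest 6 did.

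Cartilage transcripts were present in every endothelial barcode of the control callus. Col2a1 had a UMI in 49 of 49 endothelial barcodes in control and in 65 of 83 in GC, at 1590 CPM (1476–1710) and 597 CPM (536–664). In B cells, which should lack it, the cartilage list summed to 38002 CPM in control and 15849 in GC, and in empty control droplets to 57662 CPM. Of 8 cartilage genes tested in endothelial barcodes none was more than 2-fold higher in GC and 5 were more than 2-fold lower, beside 2.02% of all genes, with a median log2 ratio of −1.26. The rule itself used Col2a1, which it limited to under 1% of UMIs, so nothing is read from these counts. With no limit 5 of 11 genes were more than 2-fold higher and none lower, with a median of 0.97. That setting added 4 control and 41 GC barcodes, all with 1% or more of their UMIs in Col2a1. It lets in cartilage transcripts mostly in GC, so the change of direction follows from the choice and is not a result. The list was lower in GC in the other callus barcodes too, with a median of −0.47, and the part of free RNA in these values was not tested.

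The endothelial identity genes and the growth receptors were within 2-fold between the libraries. Of the 28 endothelial genes tested none was more than 2-fold apart, and their median log2 ratio was 0.16. With no Col2a1 limit the median was −0.41 and 1 gene was more than 2-fold lower. When each barcode weighed the same, or after thinning to 1000 UMIs, 1 gene was more than 2-fold higher. Kdr stood at 786 CPM (707–872) in control and 706 (639–778) in GC, and Flt1 at 830 (749–918) and 927 (850–1009). The intervals of each overlapped. Emcn, one of the genes of the rule, stood at 887 CPM (803–978) in control and 613 (551–680) in GC, a ratio of 0.69 (0.60–0.80). Since the barcodes were chosen partly by Emcn, this ratio only describes the barcodes chosen. Ptprb, the phosphatase that restrains the angiopoietin receptor, stood at 390 CPM (335–452) and 658 (593–727), a log2 ratio of 0.75 with and 0.80 without the mixed barcodes. The angiopoietin receptors Tek and Tie1 had log2 ratios of 0.64 and 0.61, within 2-fold. No gene was more than 2-fold apart among 16 junction genes (median 0.09), 13 genes of VEGF, angiopoietin and apelin signalling (median −0.02), 13 of nitric oxide and vessel tone (median −0.09), 10 of BMP and TGF-β signalling (median 0.07) and 10 of interferon response and antigen presentation (median 0.09). Without the mixed barcodes the junction gene Jam2 stood at 1.54, on 12 UMIs in control and 52 in GC, in place of 0.73, and no other gene of these 5 lists was more than 2-fold apart. Nos3, the endothelial nitric oxide synthase, gave 37 UMIs in control and 35 in GC.

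Hes1, a transcription factor induced by Notch and by other signals, was higher in GC (chr16:30064384-30067796, plus strand, GRCm38). It stood at 480 CPM (418–548, from 219 UMIs) in control and 1332.5 (1240–1430, from 772 UMIs) in GC, a ratio of 2.78 (2.39–3.24). The 10 barcodes with most UMIs of it held 178 of the 219 in control and 385 of the 772 in GC. The log2 ratio was 1.46. It was 1.90 without the mixed barcodes, and 0.88, within 2-fold, with no Col2a1 limit. In the other callus barcodes it was 0.49. The median barcode held 68.1 CPM in control and 619 in GC, and the gene had a UMI in 25 of 49 and 68 of 83 barcodes. Single barcodes ranged from 0 to 4182 CPM in control and from 0 to 13842 CPM in GC, so the libraries overlapped. When every barcode was thinned to 1000 UMIs, which left out 2 barcodes in control and 3 in GC, Hes1 had a UMI in 11 of 47 (23.4%, 12.3–38.0%) and 38 of 80 (47.5%, 36.2–59.0%). In B cells thinned alike the shares were 6.59% and 12.8%. Other genes of the Notch pathway were within 2-fold. Of 8 Notch genes tested Hes1 alone was more than 2-fold apart, beside 2.32% of all genes higher and 2.02% lower, and the median was −0.21. The target genes Hey1 and Nrarp had log2 ratios of −0.50 and −0.28, the ligands Dll4 and Jag1 −0.51 and −0.15, and the receptor gene Notch1 0.52.

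Cd36, a fatty acid transporter, was higher in GC. Cd36 (chr5:17781690-17888801, minus strand) stood at 81.0 CPM (57.1–112, from 37 UMIs) in control and 316 (272–365, from 183 UMIs) in GC, a ratio of 3.90 (2.73–5.71). Its log2 ratio was 1.90 with and 1.40 without the mixed barcodes, and 0.66 in the other callus barcodes. It had a UMI in 11 of 49 control and 46 of 83 GC barcodes, and after thinning in 6 of 47 (12.8%, 4.83–25.7%) and 25 of 80 (31.2%, 21.3–42.6%), against 0.659% and 1.60% of B cells. Fabp4 (chr3:10204088-10208576, minus strand) stood at 2208 CPM (2074–2348) and 3839 (3681–4002), a ratio of 1.74 (1.61–1.88), so it was within 2-fold. Its median barcode held 1050 CPM in control and 2401 in GC. The share with a UMI after thinning was 61.7% (46.4–75.5%) in control and 80.0% (69.6–88.1%) in GC, against 0.440% and 1.07% of B cells. In the other callus barcodes the log2 ratio of Fabp4 was 0.73, close to the 0.80 in endothelial barcodes.

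Lpl, which releases fatty acids from lipoproteins at the vessel wall, gave 30 UMIs in 4 control barcodes and 177 in 20 GC barcodes, with 61 of the latter in 1 barcode. Its log2 ratio was 2.13. It gave no UMI in control and 48 in GC once the mixed barcodes were left out, at least 11.6-fold higher against a floor of 3 counts in the control group. Of these 48 UMIs 21 lay in 1 barcode of the fifth of the subclusters described further on, and without it the bound was 6.66-fold. Pparg, a lipid-sensing nuclear receptor, gave 9 UMIs in 4 control barcodes and 44 in 23 GC barcodes, a log2 ratio of 1.71. It gave 6 and 27 UMIs when the mixed barcodes were left out, under the minimum, and with no Col2a1 limit it stood at 0.83, within 2-fold. Angptl4, a secreted inhibitor of lipoprotein lipase, gave 116 UMIs in control, 62 of them in 1 barcode, and 33 in GC. Its log2 ratio was −2.06, −1.94 without the mixed barcodes, of which that barcode was 1, and −1.01 with that barcode alone left out. Over the list, 9 of 18 genes could be tested, of which Cd36, Lpl and Pparg were more than 2-fold higher and Angptl4 more than 2-fold lower, beside 2.32% and 2.02% of all genes, around a median of −0.04. Without the mixed barcodes 7 genes could be tested, of which 1 was more than 2-fold higher, Cd36, and 1 lower, Angptl4, beside 1.62% and 1.39% of all genes. Gpihbp1, the anchor of lipoprotein lipase on capillaries, had a log2 ratio of −0.05, Fabp5 −0.55 and Rgcc −0.24. Of 17 genes of fatty acid oxidation only 4 had enough UMIs, none was more than 2-fold apart, and the median was 0.25.

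Clic5 and Fbln5 gave high ratios on few molecules. Clic5 (chr17:44188584-44280172, plus strand), which encodes a chloride intracellular channel protein, gave 11 UMIs in control and 76 in GC, or 24.1 CPM (12.0–43.1) and 131 CPM (103–164). The ratio was 5.45 (2.88–11.4) and the log2 ratio 2.23, against 2.00 without the mixed barcodes and 0.13 in the other callus barcodes. It had a UMI in 6 of 49 and 26 of 83 barcodes, and after thinning in 1 of 47 and 12 of 80. No thinned B cell had one. Fbln5 (chr12:101746565-101819055, minus strand), which encodes a protein of elastic fibers, gave 6 UMIs in 5 control barcodes and 69 in 26 GC barcodes, a log2 ratio of 2.77. It was 2.09 on 4 and 30 UMIs when the mixed barcodes were left out. It was 1.10 with barcodes of 1 Ptprc UMI let in, which added 2 barcodes, all in control. In the arterial list, 8 of 12 genes were tested and 2 were more than 2-fold higher, Fbln5 and Cxcl12, beside 2.32% of all genes, around a median of −0.10. With the mixed barcodes left out 1 of 5 was, Cxcl12, beside 1.62%. Sema3g fell short of the UMI minimum with 8 and 38 UMIs, and the arterial connexin Gja4 with 7 and 15. In the sinusoidal and venous list, 8 genes were tested, all with positive ratios and a median of 0.35, and 1 was more than 2-fold higher, beside 2.32% of all genes, Vcam1 with 11 UMIs in control and 52 in GC. With the mixed barcodes left out Vcam1 gave 7 and 16 UMIs, under the minimum.

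**Figure D1:**
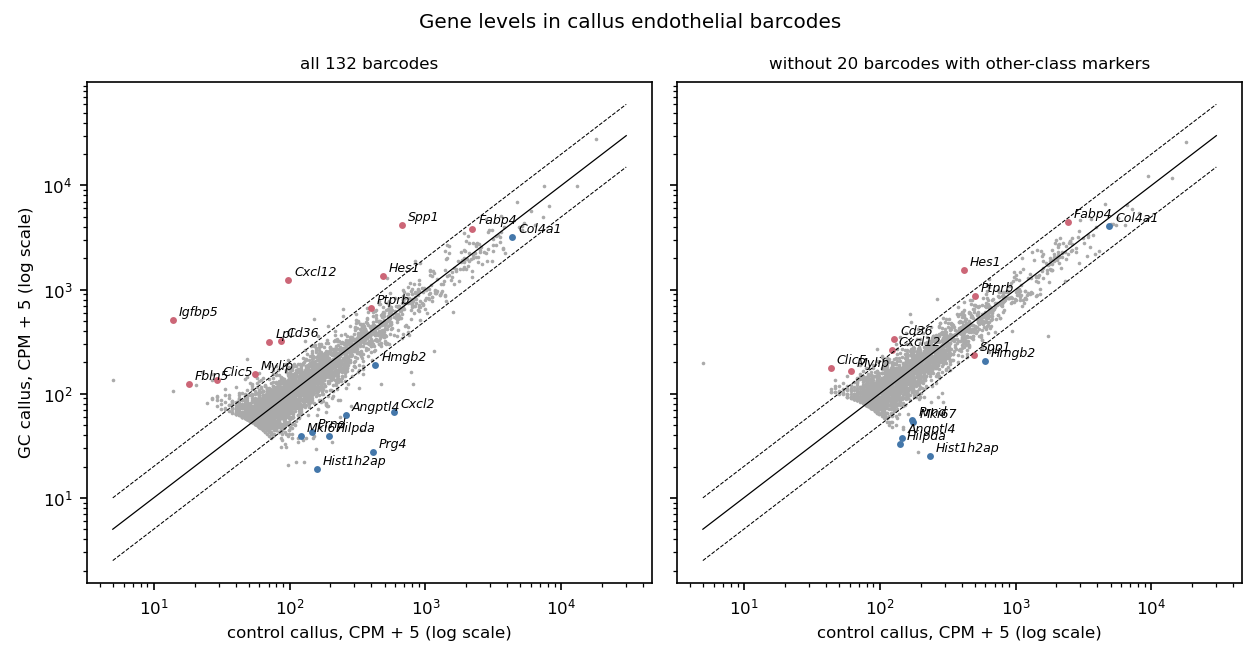
Level of each gene in GC against control endothelial barcodes (CPM with 5 added, logarithmic axes), with all 132 barcodes at left and without the 20 mixed barcodes at right. Hes1 and Cd36 lie above the upper 2-fold line in both panels, at log2 ratios of 1.46 and 1.90 at left and 1.90 and 1.40 at right.

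A pair of GC barcodes carried lymphatic markers. They held 4985 and 7336 UMIs and were not among the mixed barcodes. Ccl21a (ENSMUSG00000094686), a chemokine of lymphatic vessels with near-identical gene copies, gave 64 and 12 UMIs in them, Mmrn1 13 and 9, and Lyve1 1 and 5. Prox1, the master regulator of lymphatic identity, gave 2 UMIs in 1 of them and none in the other. Neither had Emcn. Together they held 108 of the 119 UMIs of lymphatic genes in GC, whereas control barcodes held 3. Ccl21a had no UMI in control and 76 in GC, at least 20.0-fold higher against a floor of 3 counts in the control group, and this ratio rests on those 2 barcodes.

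Most tested cell cycle genes were lower in GC. Of 22 genes in the list, 7 had enough UMIs to be tested, none was more than 2-fold higher and 5 were more than 2-fold lower, beside 2.02% of all genes. Their median log2 ratio was −1.17, against −0.57 in the other callus barcodes. Summed over the list, the level was 2067 CPM (1938–2204) in control and 1177 (1090–1269) in GC, a ratio of 0.569 (0.515–0.629). The ratio was 0.490 (0.438–0.548) without the mixed barcodes. Both directions turned with Col2a1 under 0.1% of UMIs, which left 7 control barcodes, to a summed ratio of 2.41 and a median of 0.32 over the 3 genes still tested. Mki67, the standard proliferation marker, gave 53 UMIs in 8 control barcodes and 20 in 6 GC barcodes, a log2 ratio of −1.62. The DNA topoisomerase Top2a had a log2 ratio of −1.16, the chromatin protein Hmgb2 −1.17, the microtubule regulator Stmn1 −1.21 and the mitotic gene Birc5 −1.48. Without the barcode with most UMIs of the gene Top2a stood at −0.71, Stmn1 at −0.79 and Hmgb2 at −0.95, all within 2-fold. With no Col2a1 limit Mki67 stood at −0.97, Top2a at −0.72 and Hmgb2 at −0.61. Of 12 genes then tested 3 were more than 2-fold lower, around a median of −0.67. In contrast, Pcna, the DNA replication clamp, stood at −0.05 and Ccnd1, the cyclin of early G1, at −0.29. After thinning, 13 of 47 control barcodes (27.7%, 15.6–42.6%) and 8 of 80 GC barcodes (10.0%, 4.42–18.8%) held more than 2 UMIs of the list. The intervals of these shares overlapped. The histone gene Hist1h2ap, which has near-identical copies, gave 70 UMIs in control and 8 in GC, and its log2 ratio of −3.07 stood beside −1.79 in the other callus barcodes.

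Hilpda was lower in GC, and most genes of glucose use were within 2-fold. Hilpda encodes a hypoxia-induced protein of lipid droplets (chr6:29272488-29275446, plus strand). It gave 87 UMIs in control and 20 in GC, or 191 CPM (153–235) and 34.5 CPM (21.1–53.3), 5.52-fold lower (3.37–9.48). Its log2 ratio was −2.31 with and −2.11 without the mixed barcodes, but it was −1.40 in the other callus barcodes. After thinning it had a UMI in 5 of 47 and 3 of 80 barcodes (10.6% and 3.75%), beside 7.91% and 5.35% of B cells. The part of free RNA in these shares was not tested. Of 13 genes of glucose uptake and glycolysis tested, the glucose transporter Slc2a1 (−1.15) and Pgk1 (−1.05) were more than 2-fold lower, beside 2.02% of all genes, and none was more than 2-fold higher. With no Col2a1 limit they stood at 0.03 and −0.10. The median was −0.51, against −0.27 in the other callus barcodes, and the summed level had a ratio of 0.666 (0.613–0.723). Without the mixed barcodes no gene of the list was more than 2-fold apart, and the summed ratio was 0.765. Prnd, which encodes the prion-like protein doppel, gave 64 UMIs in 14 control barcodes and 22 in 9 GC barcodes, a log2 ratio of −1.76. It was −1.64 without the mixed barcodes and −0.01 in the other callus barcodes.

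Basement membrane transcripts were lower in GC when summed. The 16 genes of the list came to 19600 CPM (19196–20010) in control and 15461 (15142–15784) in GC, a ratio of 0.789 (0.766–0.812), and of 0.838 without the mixed barcodes. Of 14 genes tested none was more than 2-fold higher and 1 was more than 2-fold lower, beside 2.02% of all genes, the endothelial laminin chain Lama4, at 344 CPM (292–402) and 169 (137–206) and a ratio of 0.492 (0.378–0.637). Its log2 ratio of −1.0 lay at the 2-fold line, it stood at −0.97 without the mixed barcodes, and no gene of the list was then more than 2-fold apart. The list had a median of −0.43 and one of 0.08 in the other callus barcodes. With no Col2a1 limit the summed ratio was 0.973. The median was then −0.64, with 4 of 15 genes more than 2-fold lower and 1 higher. Col4a1, a chain of type IV collagen, stood at 4321 CPM (4133–4516) in control and 3176 (3032–3324) in GC. Lamc1 had a log2 ratio of −0.72, the perlecan gene Hspg2 −0.42, Col15a1 −0.77 and Col18a1 −0.63, and the last 2 were −0.39 and −0.11 without the mixed barcodes. Lamb1 (0.32) and Fn1 (0.35) were positive, and 293 of the 498 UMIs of Fn1 in GC lay in 1 barcode.

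Tip cell genes, which mark the leading cells of vessel sprouts, were within 2-fold with 1 exception. Of 12 genes tested 1 was more than 2-fold lower, beside 2.02% of all genes, and all had negative log2 ratios, with a median of −0.36. That gene, Esm1, gave 83 UMIs in 7 control barcodes, 38 of them in 1, and 36 UMIs in 8 GC barcodes, a log2 ratio of −1.48 that stood at −0.84 without the mixed barcodes. Angpt2 had a log2 ratio of −0.90, Kcne3 −0.84 and the chemokine receptor Cxcr4 −0.74, whereas Apln, the ligand of the apelin receptor, stood at −0.02. The median was −0.20 without the mixed barcodes. With no Col2a1 limit it was −0.69, Angpt2 stood at −1.29 and 3 of 12 genes were more than 2-fold lower. With Col2a1 under 0.1% of UMIs 3 of 8 genes were, around a median of −0.66. Thinning to 1000 UMIs left 1 gene of the list with enough UMIs, too few to read the list. When each barcode weighed the same, 1 gene was more than 2-fold higher and none lower, around a median of −0.24.

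Known glucocorticoid targets were mostly within 2-fold in endothelial barcodes. Of 26 genes 18 were tested, and 1 was more than 2-fold lower, Angptl4, beside 2.02% of all genes. The median was 0.14, against −0.03 in the other callus barcodes. Fkbp5, a co-chaperone of the receptor, gave 18 UMIs in control and 35 in GC (log2 ratio 0.56), Tsc22d3, known as GILZ, 27 and 40 (0.21), and Klf9 109 and 178 (0.36). Sgk1 stood at 1082 CPM (989–1182) and 1364 (1270–1462), a log2 ratio of 0.33, against 0.91 in the other callus barcodes. Nfkbia stood at −0.84 and at −0.47 without the mixed barcodes. Per1 (18 and 7 UMIs), Pdk4 (3 and 32) and Bcl6 (1 and 19) were under the UMI minimum. At 20 UMIs a gene or more, 2 of 21 genes were more than 2-fold higher and 2 lower, beside 3.84% and 3.22% of all genes, around a median of 0.21. With Col2a1 under 0.1% of UMIs, which left 7 control barcodes, 1 of 15 was higher and 5 lower, beside 16.3% and 5.68% of all genes. The median was then −0.56. The receptor gene Nr3c1 gave 68 UMIs in 26 control barcodes and 103 in 45 GC barcodes, a log2 ratio of 0.25. Of 16 immediate early and stress genes, which respond to tissue dissociation, 1 was more than 2-fold lower (Hspa1b), beside 2.02% of all genes, and none more than 2-fold higher, with a median of −0.31. Without the mixed barcodes Hspa1b stood at −0.73 and was within 2-fold, Egr1 stood at 1.62 and was the only one of 15 genes past it, and the median was −0.09. With all barcodes Egr1 stood at 0.45, with 170 of 314 control UMIs in 1 barcode.

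**Figure D2:**
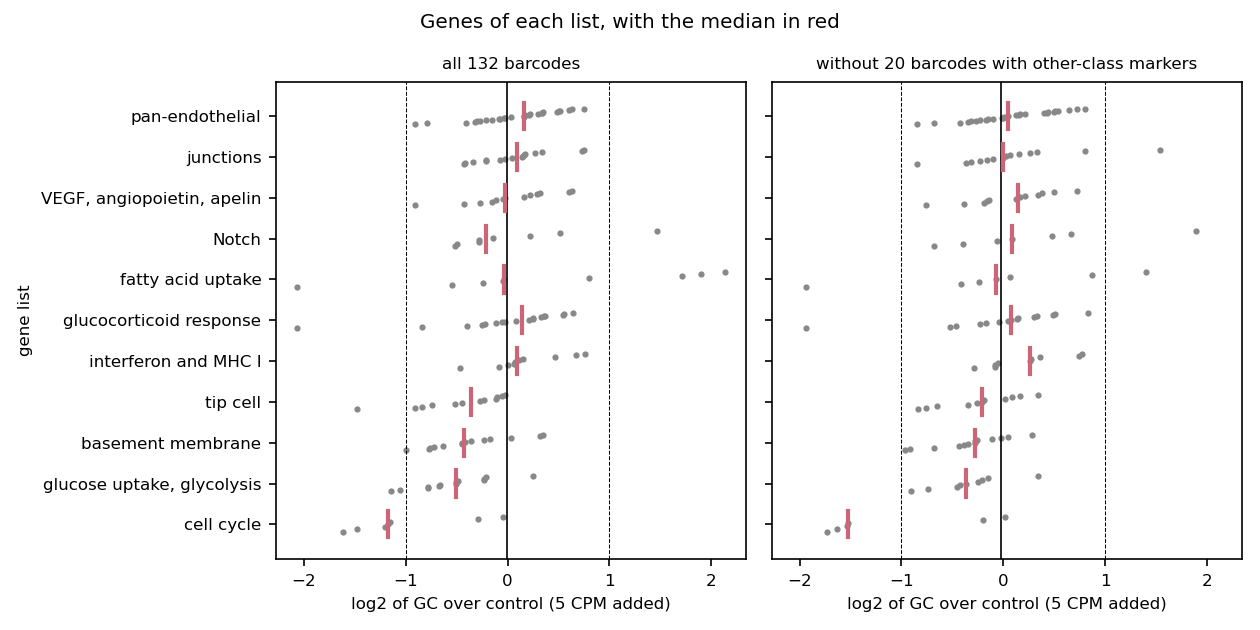
Log2 ratio of GC over control in endothelial barcodes for every tested gene of each list, with the list's median as a red bar, the median of all genes as a solid line and 2-fold as dashed lines. The cell cycle list has the lowest median of the endothelial programs, −1.17, and Hes1 stands apart from the rest of the Notch list at 1.46.

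Several of the largest ratios of secreted factors and matrix genes rested on the mixed barcodes. Cxcl12, a chemokine of vascular and stromal cells, stood at 92.0 CPM (66.3–124) in control and 1222 (1134–1316) in GC, a log2 ratio of 3.66, with 216 of 708 UMIs in 1 barcode, and at 1.07 without the mixed barcodes. Igfbp5 gave 4 UMIs in control and 294 in GC, all but 2 of the latter in mixed barcodes. Spp1 (osteopontin) had a log2 ratio of 2.64 with 1875 of 2409 UMIs in 1 barcode, and of −1.08 without the mixed barcodes. Igf1 was at 2.53 with them and gave 7 and 22 UMIs without them. On the lower side, 183 of 184 control UMIs of Prg4 (lubricin), 171 of 266 of Cxcl2, 112 of 151 of Lyz2 and 264 of 369 of S100a4 each lay in 1 barcode. Their log2 ratios were −3.89, −3.13, −2.91 and −2.71. Without the mixed barcodes S100a4 stood at 0.58 on 16 and 34 UMIs. The other 3 were under the minimum, Prg4 with 1 UMI in each library, Cxcl2 with 13 and 30 and Lyz2 with 4 and 21. Without the gene's top barcode alone Cxcl2 stood at −1.71 and Lyz2 at −1.07.

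**Figure D3:**
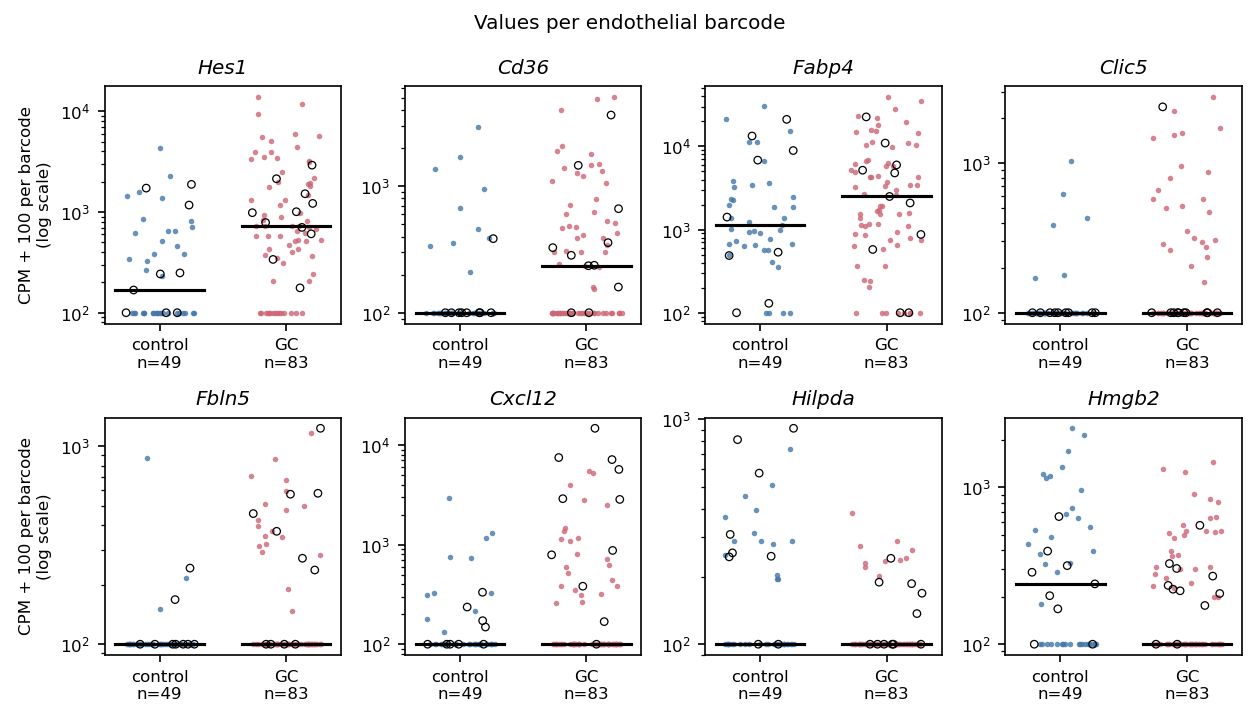
Level of single genes in each endothelial barcode (CPM with 100 added, logarithmic axis), control and GC side by side, with the median as a black bar and mixed barcodes as open circles. The median Hes1 level is 68.1 CPM in control and 619 in GC, and the ranges of the libraries overlap.

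Clustered among themselves, the 132 barcodes formed 6 subclusters. The first, of 11 control and 23 GC barcodes, was led by Clic5 (435 CPM, 15.3-fold over the other barcodes), Rasgrf2, Rbp7, Fmo2 and Tcf15, and it carried 4 arterial markers more than 2-fold above the rest. The second was cycling-like (16 and 14 barcodes), with 20 of 22 cycle markers raised more than 2-fold and Ube2c in the lead at 26.1-fold. The third (10 and 15) was led by Tbc1d9, Pmaip1 and Nptx1, with Angptl4 and the vasoconstrictor Edn1 among its 10 leading genes, and it stayed unnamed, as did the first. The fourth was sinusoidal or venous-like (5 and 16), with 7 of 12 markers and Ackr1, the chemokine receptor of venules, in the lead at 12.6-fold. The fifth (3 and 11) was led by Igfbp5, 12 of its 14 barcodes were mixed, and its endothelial genes summed to 2825 CPM against 10375 to 15487 in the others. The sixth (4 and 4) was led by Lyz2, and 5 of its 8 barcodes were mixed. These leading genes define the subclusters and are not results, and the sizes were not compared between libraries because genes that define them also differed between the libraries. With other settings 4 or 6 subclusters were found, and 3 in control and 5 in GC when the libraries were clustered apart.

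**Figure D4:**
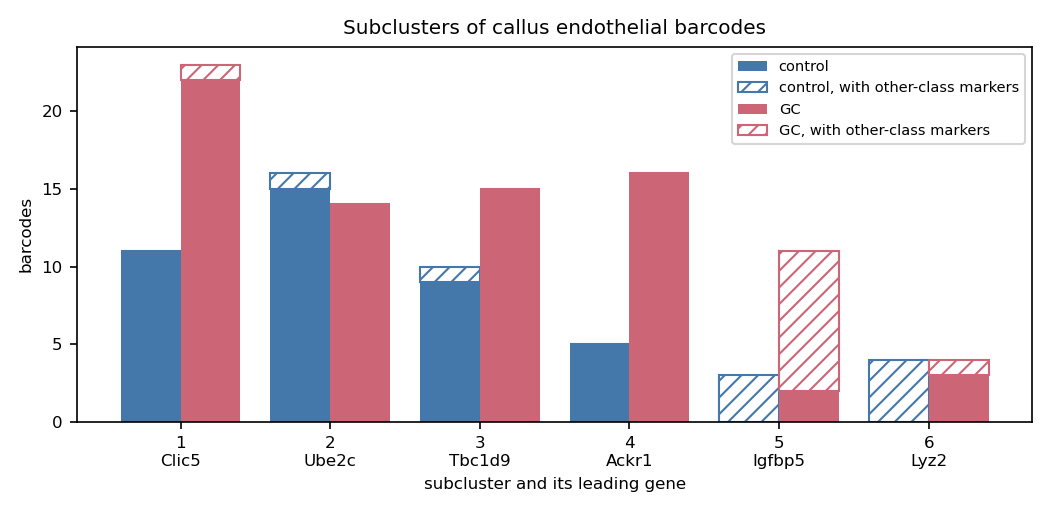
Number of endothelial barcodes in each of the 6 subclusters, control and GC, with mixed barcodes hatched. The fifth subcluster holds 12 mixed barcodes of 14 and the sixth 5 of 8.

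Within the first 4 subclusters, which held few mixed barcodes, Hes1, Fabp4, Cd36, Hilpda and Emcn were read again. Since 1 barcode can hold many of the few UMIs, the levels are also given without the barcode with most UMIs of the gene in each library, or without the mixed barcodes, a choice made after the data had been seen. Cd36, Fabp4 and Emcn were kept out of the clustering, and Hes1 and Hilpda were not.

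The summed Hes1 level stood above control in GC in each of the 4 subclusters, on few barcodes in some. In the Clic5-led subcluster it was 542 CPM (373–761) in control and 1258 (1037–1511) in GC, and 251 (134–429) and 888 (697–1115) without the top barcodes. In the cycling-like one it was 348 (255–464) and 926 (757–1121), and 288 (193–413) and 642 (498–814) without them. In the third it was 195 (107–327) and 1971 (1707–2265), and 177 (80.9–336) and 1355 (1132–1609) without them. That subcluster held the 2 barcodes with lymphatic markers, 1 of which was its top GC barcode with 69 of 199 UMIs. In the sinusoidal or venous-like one it was 813 (526–1200) and 2396 (2041–2794), but 3 of its 16 GC barcodes held 127 of the 162 UMIs, and without the top barcodes the intervals overlapped, at 892 (461–1557) and 1561 (1266–1905). The median barcode held 163 and 507 CPM in the first subcluster, 0 and 548 in the second, 0 and 1786 in the third and 286 and 514 in the fourth.

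Fabp4 stood at 3793 CPM (3320–4315) in control and 9178 (8565–9824) in GC in the Clic5-led subcluster, and at 2496 (2106–2937) and 8147 (7547–8782) without the top barcodes. The other 3 subclusters depended on single barcodes. In the cycling-like one the intervals overlapped, at 1951 and 2222 CPM, and did not without the mixed barcodes, at 1429 (1230–1652) and 2222 (1956–2514), but overlapped again without the top barcodes, at 1429 and 1573 (1345–1827). In the third the sum was 2117 (1794–2481) and 1001 (815–1216), with 93 of the 152 control UMIs in 1 mixed barcode, and without that barcode the intervals overlapped, at 911 (693–1175) and 1001. In the sinusoidal or venous-like one it was 6895 (5998–7889) and 8755 (8064–9490), with 196 of the 212 control UMIs in 1 barcode, and 1189 (680–1931) and 6731 (6108–7401) without the top barcodes.

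Cd36 stood at 230 CPM (126–386) in control and 860 (680–1074) in GC in the Clic5-led subcluster, and at 124 (49.8–255) and 738 (568–943) without the top barcodes. Its UMIs came from 4 of 11 control barcodes and 13 of 23 GC barcodes, of which 3 held 35 of 78 UMIs. In the other 3 subclusters the intervals of Cd36 overlapped. In the sinusoidal or venous-like one 10 of the 11 control UMIs lay in 1 barcode, and without the top barcodes Cd36 stood at 74.3 (1.88–414) and 409 (267–599), a log2 ratio of 2.38 in place of 0.49. In the cycling-like one it went from 0.41 to 1.89, on 1 control UMI and 5 GC UMIs. The intervals overlapped in these cases too. Hilpda gave 8 to 14 UMIs in each control subcluster and 2 or 3 in each GC one, and its intervals overlapped in the first 3. In the sinusoidal or venous-like one it stood at 390 CPM (202–682) and 29.6 (3.58–107), with 11 of the 12 control UMIs in 1 barcode, and at 74.3 CPM in control without that barcode. Emcn stood at 1100 CPM (871–1371) and 584 (445–754) in the third subcluster, where 37 of its 79 control UMIs lay in 1 barcode, and the intervals overlapped without the top barcodes, at 826 (595–1117) and 525 (387–696). In the other 3 the intervals of Emcn overlapped. The rule used Emcn, so these levels only describe the barcodes chosen.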

How the data were processed

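Single-cell RNA was measured in 4 libraries prepared by droplet capture, 1 per group. The deposited values are counts of UMIs per gene and barcode, not normalized. The authors made them with Cell Ranger, given as version 5.0.1 with Seurat 3.2.0 and mm10 in the submitters' processing notes and as version 4 or 4.0.0 in the matrix headers. The matrix of GC callus lists 7762 barcodes, already called, and those of the other libraries list 6794880. Barcodes with at least 500 UMIs, at least 200 genes and at most 10% mitochondrial UMIs were kept. Doublets were scored and kept. The endothelial barcodes and the gene lists were chosen with earlier results of these data known. Expression was computed as CPM over summed UMIs with exact Poisson intervals, ratios with exact conditional intervals and shares with Clopper-Pearson intervals, all at 95%, which cover counting error only. Log2 ratios were taken with 5 CPM added, for genes of at least 50 UMIs over both libraries. Folds over other barcodes, also those of the subclusters, were taken with 5 CPM added to both levels. Mixed barcodes were those with at least 3 genes of another class list at 2 or more UMIs each. Subclusters came from the Leiden method at resolution 0.8 with 10 neighbors on 15 components of 1000 variable genes, without the lists of glucocorticoid response, fatty acid handling, glycolysis and stress and without the 5 marker genes of the label. B cell barcodes (463 in control, 192 in GC) gave the background of free RNA.

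The named genes are those of the lists, the 15 highest and the 15 lowest log2 ratios at 50 CPM or more, the 20 genes that most set the endothelial barcodes apart, and the 10 leading genes of each subcluster. Hilpda, Clic5 and other genes are given more room for values that had been seen. Gene positions came from the GRCm38 annotation, in which 32158 of 32285 identifiers matched. Clustering used leidenalg 0.10.2, igraph 0.11.9 and scikit-learn 1.9.0, intervals scipy 1.17.1, figures matplotlib 3.10.9, and tables pandas 2.3.3 and numpy 2.4.6 in Python 3.11.15. Alternatives covered the filters, the endothelial rule, mixed barcodes, weighting, scaling, pseudocount, gene minimum, depth and clustering.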

Additional observations from a re-analysis of the deposited data

Results flagged for a closer look

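In GC callus, 41 barcodes met every condition for an endothelial barcode but held 1% or more of their UMIs in Col2a1, and in control callus 4 did. They entered the comparisons above only where no Col2a1 limit was set. The 41 had a median of 13865 UMIs and 2 UMIs of Cdh5, with Cdh5 at 274 CPM, and the 4 a median of 39805 UMIs and 19 UMIs of Cdh5, against medians of 9 and 8 Cdh5 UMIs in the endothelial barcodes that were kept. All 41 and all 4 carried markers of another class.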

How the results depend on the processing

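No paired analysis was possible because each group has 1 library. The genes more than 2-fold higher and lower in GC numbered 85 and 74 of 3670. They numbered 347 and 121 of 2130 with Col2a1 under 0.1% of UMIs, which left 7 control barcodes, and 183 and 137 of 5218 with no Col2a1 limit. Without the barcodes that carried another class as first defined they numbered 48 and 40 of 2635, and with stromal carriers left out too 42 and 36 of 2588. They numbered 253 and 212 of 6587 at 20 UMIs a gene or more, 31 and 36 of 1930 at 100 or more, and 16 and 9 of 398 (4.02% and 2.26%) after thinning to 1000 UMIs. Of 3670 genes the higher ones numbered 159 when each barcode weighed the same and 51 with 20 CPM added. The endothelial share was 0.0981% in control with Col2a1 under 0.1%, a ratio of 10.7, and 0.477% in control without cycling barcodes and those under 1000 UMIs. In GC it was 1.69% with no Col2a1 limit and 1.55% at 2000 UMIs or more. Of Ptprc-free barcodes it was 1.08% and 1.74%. Thinned to 500 UMIs, the share with a UMI was 12.2% in control and 36.1% in GC for Hes1, 42.9% and 66.3% for Fabp4, 16.9% in GC for Cd36 and 0% of 49 in control for Fbln5. Thinned to 2000 UMIs, it was 38.1% for Hes1 and 81.0% for Fabp4 in control.

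With Col2a1 under 0.1% the cell cycle median turned to 0.32, over 3 tested genes in place of 7, and Hmgb2 to 1.98. Leaving out the cycling barcodes, which were chosen by these genes, gave 0.0045 over 3 genes and 0.15, values that the choice fixes and that show no turn. With no Col2a1 limit the log2 ratio was 0.81 for Col2a1, 0.59 for Col9a2, 0.97 for Comp, 1.41 for Hapln1, −0.092 for Ogn and 0.030 for Slc2a1, and the cartilage median was 0.97. The barcodes let in were those high in Col2a1, so the turn of the cartilage genes follows from that choice. Without the carriers as first defined, S100a4 turned to 0.53 and Spp1 to −0.77, and with stromal carriers left out too to 0.58 and −1.08. Mmp9 turned from −1.34 to 1.09 with a marker sum of 5 or more and to 1.03 without its top barcode. Without the top barcode Prg4 stood at 1.91 and Tgfb2 at −0.64 in place of 1.42, and without the mixed barcodes Fabp4 in the third subcluster stood at 0.14. Apart from the effect of barcodes that an alternative removes by construction or lets in by their Col2a1, the cause was not tested. Cd36 was more than 2-fold higher in all 21 settings in which it was measured, Clic5 in all 19 and Fbln5 in all 17, down to 1.10 with up to 1 Ptprc UMI, and Hilpda was more than 2-fold lower in all 19. Hes1 was more than 2-fold higher in 20 of 21, and with no Col2a1 limit its log2 ratio was 0.88. The 49 and 83 barcodes limit every gene of few UMIs, since a single barcode can set the ratio.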
